A study of Mus musculus with 4 samples.

Results

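Solute carrier genes encode membrane transporters that move amino acids, sugars, ions, metals, nucleotides and vitamins across the plasma membrane and the membranes of organelles. The members were all genes of the deposited peak lists whose symbol begins with Slc and a family number or with Slco, except 3 genes that the selection left out. They numbered 108 of the 7491 genes with a peak for N6-methyladenosine (m6A), the methyl mark on adenosines within mRNA. MeRIP-seq was performed on pooled pancreatic islet RNA of 2 genotypes, with fragments bound by an m6A antibody (IP) sequenced beside unselected fragments (input). Wtap-betaKO islets, labelled as a knockout of Wtap in beta cells, came from 19 mice, and Wtapflox/flox islets, the floxed controls, came from 10 mice. All mice were 7 weeks old and had normal chow. The Cre line is not given in the sources used here. RNA was pooled over the mice of a genotype, and 1 pool each, without replicates, allows no test between the genotypes.

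Most m6A of mRNA is written by METTL3 with METTL14, and WTAP is the regulatory partner that holds this pair in nuclear speckles. The mark is found mostly around stop codons and in long exons, and reader proteins that bind it alter the stability and translation of the mRNA. In beta cells, solute carriers bring in glucose, amino acids and zinc, carry metabolites into mitochondria and set intracellular calcium and chloride. The comparison addresses which transporter transcripts had an m6A peak in islets lacking Wtap in beta cells and which had one in control islets.

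The Wtap-betaKO list held 9411 peaks in 5378 genes, and the Wtapflox/flox list held 10964 peaks in 6250 genes. Wtap itself had 1 peak in the Wtap-betaKO list and 2 in the Wtapflox/flox list, none of them overlapping, and peaks of a transcript do not check which exons were deleted. All 8 beta cell markers had a peak in the Wtap-betaKO list and 7 of 8 in the Wtapflox/flox list. Of 35 markers of alpha, delta and PP, acinar, ductal, endothelial, stromal and immune cells, 20 had a Wtap-betaKO peak and 17 a Wtapflox/flox peak. The cell types differed in direction. Wtap-betaKO and Wtapflox/flox counts were 3 and 0 of 4 ductal, 4 and 2 of 4 delta and PP, and 5 and 4 of 6 alpha markers. They were 1 and 2 of 6 acinar, 5 and 6 of 6 endothelial, 1 and 2 of 5 immune, and 1 and 1 of 4 stromal markers. The part of these cell types in the results below was not tested. A peak can be called only where the RNA is present in enough reads, the read depth is unknown, and in pooled islets fewer cells of a type and less RNA per cell cannot be told apart.

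Peaks were found for solute carriers of 36 of the 52 families annotated by RefSeq, and for 108 of 386 coding genes of this kind (28.0%). The 386 and the family totals below do not count the 3 genes that the selection left out. The nucleotide sugar family Slc35 had the most genes with a peak, 16 of 27. The zinc families Slc30 and Slc39 had 6 of 9 and 7 of 14 genes with a peak, and the mitochondrial carriers 12 of 47. The organic ion family Slc22 had 2 of 25, and the neurotransmitter and amino acid family Slc6 had 2 of 21. Family Slc1, with 7 coding genes for glutamate and neutral amino acid transporters, had no peak in either list. A gene without a peak may lack the mark, may carry it below detection or may not be transcribed in islets. The share of all coding genes with a peak is not given here. These counts therefore do not set the solute carriers or any of their families apart.

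In all, 12 members had Wtap-betaKO peaks alone, 61 had peaks in both lists and 35 had Wtapflox/flox peaks alone. The 12 were 16.4% of the 73 members with a Wtap-betaKO peak (exact 95% interval 8.79 to 27.0), against 23.1% over all genes with such a peak. The 35 were 36.5% of the 96 members with a Wtapflox/flox peak (26.9 to 46.9), against 33.8% over all genes. Both intervals include the value over all genes, so the solute carriers were not set apart by either share. Intervals here and below cover counting error over genes or peaks, not variation between animals or libraries, and peaks of 1 gene are not independent of each other.

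Transport classes were set by family number, so what a single member carries can differ from the name of its class. The amino acid transporters and the nucleotide sugar transporters were the largest classes, and neither had a member with Wtap-betaKO peaks alone. Of 19 amino acid transporter genes, 15 had peaks in both lists and 4 had Wtapflox/flox peaks alone. Among the 17 nucleotide sugar and endoplasmic reticulum (ER) or Golgi transporter genes, 12 had peaks in both and 5 had Wtapflox/flox peaks alone. With so few genes, 0 of 15 and 0 of 12 allow shares of up to 21.8% and 26.5% (upper bounds of the exact intervals). The first bound lies just below the 23.1% over all genes and the second above it. The 15 amino acid transporter genes held 28 Wtap-betaKO peaks. Among other genes the share was 33.7% with 1 Wtap-betaKO peak and 10.1% with 2. The 23.1% is thus not a like background, and the first bound does not set that class apart.

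**Figure D1:**
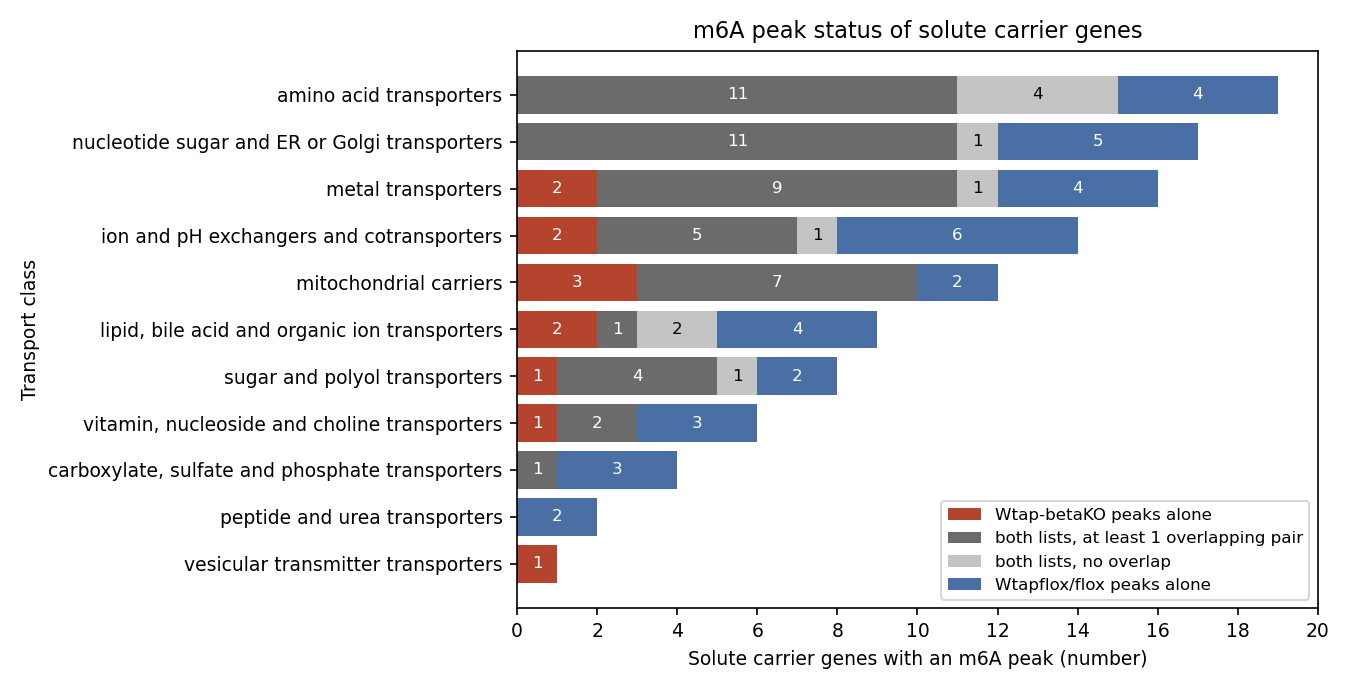
Number of solute carrier genes with an m6A peak in each transport class, split into genes with Wtap-betaKO peaks alone, genes with peaks in both lists with and without an overlapping pair, and genes with Wtapflox/flox peaks alone. The 12 genes with Wtap-betaKO peaks alone lie in 7 of the 11 classes, with 3 among the mitochondrial carriers, and the 35 with Wtapflox/flox peaks alone lie in 10 classes.

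The L-type amino acid transporters carry large neutral amino acids such as leucine, and Slc7a5 and Slc7a8 encode light chains that pair with the heavy chain encoded by Slc3a2. All 3 genes had peaks in both lists, as did Slc43a2, which encodes another transporter of large neutral amino acids. In Slc7a8, Slc3a2 and Slc43a2, peaks reached into the RefSeq window that surrounds an annotated transcript start (250 bases before to 50 after, GRCm38.p6). In Slc7a8 this start is at the 5′ end of the gene, whereas the peaks in the windows of Slc3a2 and Slc43a2 were centred 9620.5 and 2318.5 nt from the 5′ end of the gene span. Such windows were found for 84 members, and 6 had a peak in one, all 6 in Wtapflox/flox and 2 of them in Wtap-betaKO too. The same count over all genes is not given here, so these numbers do not set the solute carriers apart. The covered bases of the 3 genes (for Slc7a8, a stretch of 30 around the edge of the Wtapflox/flox peak) are shown because no other sequence of these peaks could be read here. They run 5′ to 3′ on the transcribed strand, with capitals for bases covered in both lists and lower case for bases covered in 1 list. For Slc7a8 (chr14:54781837-54781866, minus strand), lower case marks bases in the Wtap-betaKO peak. For Slc3a2 (chr19:8713848-8713868, minus strand) and Slc43a2 (chr11:75532144-75532161, plus strand) it marks bases in the Wtapflox/flox peak.
Slc7a8: ggcgagaaggAAGGGGCGACCGCAGCAGGT
Slc3a2: gcagttaggaagctctgctag
Slc43a2: aaggaagggtctcgagtg

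Slc7a8 had 4 Wtap-betaKO peaks and 3 Wtapflox/flox peaks. The Wtap-betaKO peak at its 5′ end (chr14:54781497-54781946) had a fold enrichment of 4.98 and a −log10 q of 19.9. The fold compares IP with input reads within a peak and q is the false discovery rate of that peak, and both are the authors' own values, which rank peaks within a list and not between lists. Over the same place the Wtapflox/flox list had 2 peaks, chr14:54781257-54781527 with a fold of 1.90 and chr14:54781676-54781856 with a fold of 1.68, at −log10 q of 5.26 and 2.70. The long Wtap-betaKO peak thus held the second of these whole and 31 nt of the first. Near the 3′ end of Slc7a8, 1 Wtap-betaKO peak (fold 2.45) overlapped a Wtapflox/flox peak (1.58), and 2 more Wtap-betaKO peaks had no counterpart.

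Slc3a2 had 1 peak per list with the same 3′ boundary, chr19:8713629-8713809 in Wtap-betaKO (fold 2.67) and chr19:8713629-8713868 in Wtapflox/flox (fold 3.25). For Slc7a5, a Wtap-betaKO peak of 150 nt (fold 2.65, −log10 q 5.07) lay inside a Wtapflox/flox peak of 689 nt (fold 4.91, −log10 q 23.4). Slc43a2 had 3 peaks in each list, of which 2 per list overlapped. Its 5′ peak was listed in Wtapflox/flox alone (fold 3.97), and a peak of 511 nt centred 2173 nt from its 3′ end (chr11:75575147-75575657, fold 4.39) in Wtap-betaKO alone. The 5′ peak of Slc43a2 also overlapped a peak on the other strand without a gene name.

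Slc7a14, which encodes a lysosomal transporter, had 5 peaks in each list. Its Wtap-betaKO folds lay between 1.56 and 3.49, and its Wtapflox/flox folds between 1.70 and 4.04. All 5 Wtap-betaKO peaks and 4 of the 5 Wtapflox/flox peaks overlapped a peak of the other list. The Wtapflox/flox peak chr3:31208401-31209390 of 990 nt covered the place of 2 Wtap-betaKO peaks of 271 and 420 nt. The Wtapflox/flox peak closest to the 3′ end of the gene (fold 1.70, −log10 q 9.07) had no counterpart.

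Slc38a10, a member of the family of sodium-coupled neutral amino acid transporters, had 2 overlapping pairs of strong calls. Its −log10 q was 32.8 and 36.9 in Wtap-betaKO, the second being the highest of any solute carrier peak of that list, and 36.2 and 23.4 in Wtapflox/flox. Slc38a2, a sodium-coupled transporter of small neutral amino acids, had 2 Wtap-betaKO peaks (folds 3.93 and 5.43) and 1 Wtapflox/flox peak (3.22). The 3′ peaks overlapped, and the upstream Wtap-betaKO peak, which spans 2 exon blocks, had no counterpart. Slc6a6, the taurine transporter gene, likewise had 1 overlapping pair (folds 2.32 in Wtap-betaKO and 4.76 in Wtapflox/flox) and a second Wtap-betaKO peak (3.06) at its 3′ end.

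In 4 amino acid transporter genes the peaks of both lists did not overlap, namely Slc36a1, Slc38a4, Slc6a17 and Slc7a1, each with 1 peak per list. The nearest peak centres lay 1346 nt apart along the genome in Slc36a1, a proton-coupled amino acid transporter of lysosomes, and 2530.5 nt apart in Slc7a1, a cationic amino acid transporter. In Slc38a4 and Slc6a17 they lay 30409 and 29415 nt apart. The −log10 q of these Wtap-betaKO peaks lay between 2.09 and 4.94 and that of the Wtapflox/flox peaks between 2.42 and 8.58.

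The remaining genes of this class had 1 overlapping pair each. Slc7a4, of the cationic amino acid transporter family, had 1 Wtap-betaKO peak (fold 4.98) and 2 Wtapflox/flox peaks (3.92 and 3.08). Slc43a3, placed in this class by its family number alone, had 2 Wtap-betaKO peaks (2.66 and 5.43), the second of which contained its Wtapflox/flox peak (3.58). Slc3a1, the heavy chain of the cystine transporter of kidney, had folds of 4.48 in Wtap-betaKO and 2.54 in Wtapflox/flox, over peaks of Prepl on the other strand.

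With Wtapflox/flox peaks alone there were Slc36a4, Slc38a7, Slc7a6 and Slc7a15. Slc36a4, a proton-coupled amino acid transporter gene, had the highest fold of any solute carrier peak, 34.8 (chr9:15738292-15738652, −log10 q 18.0). High folds in each list fall on multiples of one unit (a step), 0.815 in the Wtap-betaKO list and 1.05 in the Wtapflox/flox list, and the fold of Slc36a4 is among them. At folds of 8 or more it holds for 5 of 108 Wtap-betaKO and 16 of 140 Wtapflox/flox solute carrier peaks (4.63% and 11.4%), against 10.1% and 13.7% of all peaks. How many reads lie behind such folds is not known here. The lysosomal glutamine transporter gene Slc38a7 (fold 3.82) and Slc7a15 (3.86) had lower folds, and Slc7a6 had 16.9, which is on the step; −log10 q was 2.55, 2.13 and 2.87 in that order.

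Nucleotide sugar transporters of the Slc35 family supply the Golgi and ER with substrates for glycosylation. Of the 12 genes of this class with peaks in both lists, 11 had an overlapping pair. Slc35b4 had 3 Wtap-betaKO peaks of 631, 181 and 181 nt inside a single Wtapflox/flox peak of 1860 nt, the longest of any solute carrier. The folds of the 3 lay between 2.62 and 4.38, and that of the Wtapflox/flox peak was 3.25. In Slc35g2, the peak chr9:100552668-100552997 had the same start and end in both lists, with folds of 2.33 in Wtap-betaKO and 3.75 in Wtapflox/flox. Slc35g2 also had 2 nearly identical Wtap-betaKO entries downstream of it (119 and 121 nt), which cover 1 place.

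Slc33a1, which imports acetyl-CoA into the ER, had a Wtap-betaKO peak of 627 nt (fold 3.37, −log10 q 12.9) inside a Wtapflox/flox peak of 805 nt (6.53, 36.8). A peak of an unnamed gene on the other strand covered most of the same place in both lists, so the reads could belong to either. Slc35e1 had 1 Wtap-betaKO peak (fold 3.42) and 2 Wtapflox/flox peaks (8.66 and 5.23), and Slc35a4 had 2 peaks in each list (4.08 and 2.07 in Wtap-betaKO, 2.82 and 3.91 in Wtapflox/flox), with 1 overlapping pair in each gene. The CMP-sialic acid transporter gene Slc35a1, the GDP-fucose transporter gene Slc35c1, Slc35a5, Slc35c2, Slc35d3 and Slc35e2 had 1 peak per list, all overlapping. Folds of these 6 were 4.01, 3.91, 2.42, 4.69, 3.48 and 2.88 in Wtap-betaKO, and 2.41, 5.43, 3.86, 3.51, 7.02 and 12.6 in Wtapflox/flox, the last on the step. The 2 lists thus held a peak at the same place for each of these genes. In Slc35e4 the peaks lay 5696 nt apart. The 5 genes with Wtapflox/flox peaks alone had 1 peak each. They were Slc35b2, the transporter of the sulfate donor PAPS (fold 2.87), Slc35f5 (2.31), Slc35f6 (5.90), and Slc35e3 (11.6) and Slc35g1 (14.7), both on the step.

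Zinc transporters fall into the Slc30 family, which moves zinc out of the cytosol, and the Slc39 family, which moves it in. In each family 4 genes had peaks in both lists, and all of these had an overlapping pair. Slc39a7, which releases zinc from the ER, had 3 peaks in each list, at 3 matching places. Its Wtap-betaKO folds were 3.38, 1.85 and 3.59, and the Wtapflox/flox folds at the same places were 4.34, 1.81 and 4.21. The −log10 q was 4.09, 4.51 and 16.0 in Wtap-betaKO, against 16.6, 3.74 and 34.7 in Wtapflox/flox. All of these overlapped peaks of an unnamed gene on the same strand, and reads of the 2 genes cannot be told apart.

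Slc30a1, the zinc exporter of the plasma membrane, had 1 Wtap-betaKO peak of 959 nt (fold 4.77) that overlapped both of its Wtapflox/flox peaks, of 390 and 241 nt (folds 4.87 and 3.55). Slc30a5 and Slc30a6, whose products work together in the secretory pathway, had 1 overlapping pair each. Slc30a5 had folds of 3.55 in Wtap-betaKO and 3.82 in Wtapflox/flox, and Slc30a6 had 8.56 and 13.0. Slc30a4 had 2.41 and 4.58. The plasma membrane zinc importer genes Slc39a6 (4.12 in Wtap-betaKO and 4.54 in Wtapflox/flox) and Slc39a10 (3.53 and 4.51) also had 1 overlapping pair each, as did Slc39a13 (2.72 and 3.64) and the iron exporter gene Slc40a1 (2.58 and 4.16).

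Among metal transporters with Wtap-betaKO peaks alone were the zinc importer gene Slc39a3 (fold 2.81, −log10 q 3.96) and Slc41a2 of the magnesium transporter family (2.45 and 2.83). With Wtapflox/flox peaks alone there were Slc30a7 (fold 3.24), Slc30a9 (1.98), Slc39a14 (6.11) and Slc39a9. Slc39a9 had 2 such peaks with folds of 2.48 and 2.56. Slc31a2, of the copper transporter family, had 1 peak per list, 836.5 nt apart.

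Among calcium exchangers, Slc8a1 and Slc24a2 had several peaks in each list. Slc8a1, the plasma membrane sodium/calcium exchanger, had 2 Wtap-betaKO peaks (folds 2.40 and 2.11) and 3 Wtapflox/flox peaks (4.91, 6.85 and 4.10). Both Wtap-betaKO peaks overlapped a Wtapflox/flox peak, and the peak of 4 exon blocks at chr17:81428277-81441657 was listed in Wtapflox/flox alone. Slc24a2, a potassium-dependent sodium/calcium exchanger, had 4 Wtap-betaKO and 5 Wtapflox/flox peaks, 2 per list overlapping. Its strongest call by q was at the 5′ part of the gene, chr4:87227406-87230327 in Wtap-betaKO (fold 2.57, −log10 q 9.99) and chr4:87227347-87227915 in Wtapflox/flox (3.68 and 37.9). Slc24a5 had 1 overlapping pair, which in both lists lay over a peak of Myef2 on the other strand.

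Cation-chloride cotransporters differed among themselves. Slc12a7, which carries potassium and chloride out of cells, had 2 Wtap-betaKO peaks (folds 4.89 and 2.45) and 3 Wtapflox/flox peaks (1.88, 5.86 and 2.46), with a peak near the 3′ end listed in Wtapflox/flox alone. Slc12a2, which carries sodium, potassium and chloride into cells, had 1 weak Wtap-betaKO peak alone (fold 9.37, −log10 q 2.78).

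Slc9a8 (fold 2.58) had a Wtapflox/flox peak alone. The sulfate transporter gene Slc26a2 had 3 such peaks (folds 6.32, 3.51 and 14.7, the last on the step). Slc26a1 (8.95) and the sodium bicarbonate transporter gene Slc4a8 (13.7, on the step) also had Wtapflox/flox peaks alone. Another 3 members of this class do not encode transporters themselves. The scaffold gene Slc9a3r2 had a Wtap-betaKO peak alone (fold 3.05), and the scaffold gene Slc9a3r1 (3.69) and Slc4a1ap (3.77) had Wtapflox/flox peaks alone.

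**Figure D2:**
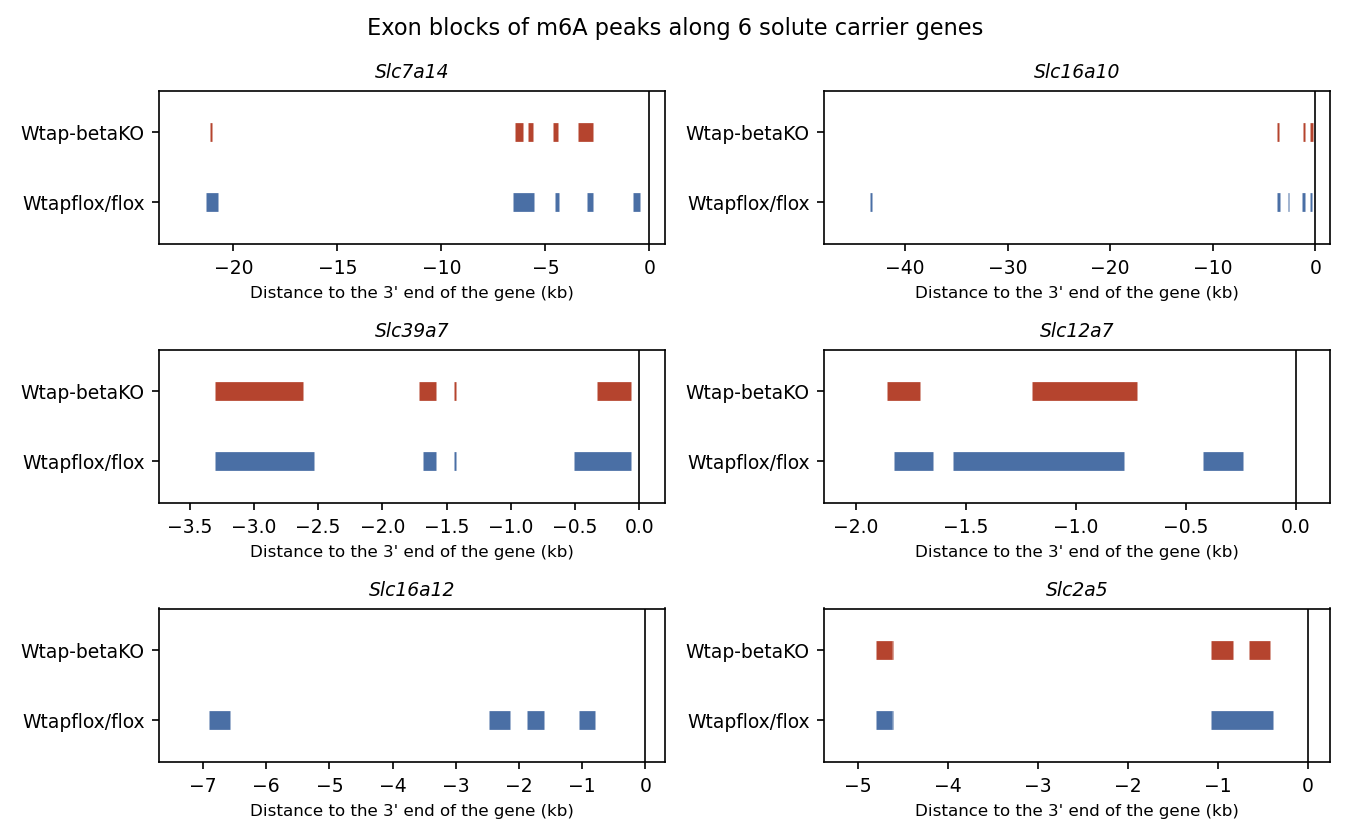
Exon blocks of m6A peaks in 6 solute carrier genes, drawn to scale by distance to the 3′ end of the RefSeq gene in kilobases (each panel has its own axis), with Wtap-betaKO peaks in the upper row and Wtapflox/flox peaks in the lower row. Slc39a7 has 3 peaks per list at matching places, Slc7a14 has 5 per list with the one nearest the 3′ end in Wtapflox/flox alone, and the 4 peaks of Slc16a12 are all in Wtapflox/flox.

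Mitochondrial carriers exchange metabolites across the inner mitochondrial membrane. Peaks in both lists were found for 7 of the 12 carrier genes with a peak, each with an overlapping pair. Slc25a4, an ADP/ATP carrier, had 1 Wtap-betaKO peak (fold 2.65, −log10 q 13.9) and 2 Wtapflox/flox peaks (2.07 and 2.11, at 6.80 and 3.17). Slc25a46, whose product lies in the outer membrane, had 2 peaks in each list. Its main peak had a fold of 1.82 and a −log10 q of 5.58 over 300 nt in Wtap-betaKO, and 5.30 and 42.2 over 570 nt in Wtapflox/flox. The Wtap-betaKO peak lay inside the Wtapflox/flox peak.

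Slc25a44, a carrier of branched-chain amino acids, had 2 Wtap-betaKO peaks (folds 2.47 and 2.93), which overlapped the first and the third of its 3 Wtapflox/flox peaks (2.96, 3.37 and 3.88). Slc25a11, the oxoglutarate carrier gene, had folds of 2.48 in Wtap-betaKO and 2.38 in Wtapflox/flox. The iron carrier gene Slc25a28 (2.70 in Wtap-betaKO and 3.71 in Wtapflox/flox) and the NAD+ carrier gene Slc25a51 (2.91 and 3.31) also had 1 overlapping pair each. Slc25a23, a calcium-regulated ATP-Mg/phosphate carrier, had 2 Wtap-betaKO peaks (2.93 and 2.51) and 1 Wtapflox/flox peak (13.7, on the step). Wtap-betaKO peaks alone were found for the phosphate carrier gene Slc25a3 (fold 2.36, −log10 q 7.95), Slc25a42, which carries coenzyme A (5.22 and 2.92), and Slc25a53 (2.45 and 2.68). Slc25a32 (7.55 and 6.57) and Slc25a36 (12.6, on the step, and 4.22) had Wtapflox/flox peaks alone.

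Among sugar transporters, the fructose transporter gene Slc2a5 had 3 Wtap-betaKO peaks with folds of 1.75, 1.89 and 2.06 and 2 Wtapflox/flox peaks with folds of 1.63 and 3.40. The upstream peak, over 2 exon blocks, had the same boundaries in both lists. The Wtapflox/flox peak chr4:150143095-150143781 had the highest −log10 q of any solute carrier peak, 120, and the 2 Wtap-betaKO peaks inside it had 28.5 and 19. Slc37a1, of the sugar phosphate family, had 2 Wtap-betaKO peaks (2.04 and 2.60) and 1 Wtapflox/flox peak (2.47), the second pair sharing only 1 nt. Slc37a3, of that family too, had 1 overlapping pair (3.07 in Wtap-betaKO and 4.62 in Wtapflox/flox). Slc45a4 had 2 Wtap-betaKO peaks (4.89 and 3.26) and 1 Wtapflox/flox peak (3.91), with 1 overlapping pair.

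Slc2a1, which encodes the glucose transporter GLUT1, had 1 Wtap-betaKO peak alone, a weak call with a fold of 14.7 on the step and a −log10 q of 2.42. The myo-inositol transporter gene Slc5a3 had 1 Wtap-betaKO peak (fold 8.97) and 2 Wtapflox/flox peaks (14.7 and 20) without overlap, all on the steps. Slc50a1 (fold 5.44, −log10 q 4.66) and Slc5a2, the sodium-glucose cotransporter known from the kidney (8.43, on the step, and 5.46), had Wtapflox/flox peaks alone. The Slc5a2 peak lay over a peak of BC017158 on the other strand.

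The monocarboxylate family Slc16 included the longest run of peaks in Wtapflox/flox alone. Slc16a12, which transports creatine, had 4 Wtapflox/flox peaks with folds of 2.88, 2.07, 4.11 and 4.40 and −log10 q of 7.14, 6.43, 16.7 and 21, and no Wtap-betaKO peak. Slc16a9 (fold 5.15, −log10 q 16.6) and Slc16a6 (7.72 and 3.13) also had Wtapflox/flox peaks alone. Slc16a10, whose product carries aromatic amino acids, had 3 Wtap-betaKO peaks (2.12, 2.06 and 1.86), all overlapping. Its 5 Wtapflox/flox peaks had folds between 1.41 and 2.19, 3 of them overlapping.

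Choline-like transporter genes of the Slc44 family had peaks in both lists for Slc44a1, a choline transporter (folds 2.19 in Wtap-betaKO and 4.45 in Wtapflox/flox), and Slc44a3. Slc44a3 had 1 Wtap-betaKO peak (2.92) and 2 Wtapflox/flox peaks (3.16 each). Slc44a2 had a Wtap-betaKO peak alone (7.34, −log10 q 7.41). Vitamin and nucleoside transporter genes with Wtapflox/flox peaks alone were Slc46a3 (3.46), the riboflavin transporter gene Slc52a2 (6.32) and the monoamine transporter gene Slc29a4 (2.55).

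Lipid, bile acid and organic ion transporters included the fatty acid transport gene Slc27a1, the only one of this class with an overlapping pair (folds 4.16 in Wtap-betaKO and 4.41 in Wtapflox/flox). Slc22a17 and Slc22a23 also had peaks in both lists, with nearest centres 6140.5 and 914.5 nt apart. Slc22a23 had 1 Wtap-betaKO peak (17.1, on the step) and 2 Wtapflox/flox peaks (2.21 and 3.96), the second of them 1110 nt long. Slc10a7 (fold 7.57, −log10 q 8.09) and Slco2b1 (15.5, on the step, and 2.62) had Wtap-betaKO peaks alone. Slc10a3 (12.6, on the step), Slc27a4 (2.48), the prostaglandin transporter gene Slco2a1 (3.16) and Slco3a1 (3.39) had Wtapflox/flox peaks alone. Their −log10 q lay between 1.82 and 3.80. Of the remaining classes, the vesicular polyamine transporter gene Slc18b1 had 1 Wtap-betaKO peak alone (13.0, on the step, and 2.02). The lysosomal peptide/histidine transporter genes Slc15a3 (17.9, on the step, and 3.12) and Slc15a4 (5.44 and 3.72) had 1 Wtapflox/flox peak alone each. That of Slc15a3 lay over a peak of Tmem132a on the other strand.

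Solute carrier genes with peaks in 1 list alone were mostly genes with 1 peak and a weak call. Other genes were alike in peak number. Of those with peaks in 1 list alone, 1089 of 1229 in Wtap-betaKO and 1673 of 2078 in Wtapflox/flox had 1 peak. Among members with 1 peak in a list, 12 of 52 in Wtap-betaKO (23.1%, 12.5 to 36.8) and 32 of 70 in Wtapflox/flox (45.7%, 33.7 to 58.1) had no peak in the other list, against 33.7% and 45.7% of other genes with 1 peak. All 12 members with 2 Wtap-betaKO peaks and all 9 with 3 or more had a Wtapflox/flox peak. Counts of 0 of 12 and 0 of 9 allow shares without one of up to 26.5% and 33.6%, which include the 10.1% and 2.59% of other genes. All 12 members with Wtap-betaKO peaks alone had 1 peak, and their median −log10 q was 2.88 (range 2.02 to 8.09), against 5.29 for the Wtap-betaKO peaks of members with peaks in both lists. Slc10a7, Slc25a3 and Slc44a2 were the 3 of the 12 above 5. Of the 35 members with Wtapflox/flox peaks alone, 32 had 1 peak, and the other 3 were Slc39a9, Slc26a2 and Slc16a12. The median −log10 q of their 41 peaks was 3.80 (1.81 to 21), against 7.38 for Wtapflox/flox peaks of members with peaks in both, and 12 of the 41 were above 5. The same q values over all genes are not given here, so they do not set the solute carriers apart.

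At the level of single peaks, 72 of 108 Wtap-betaKO peaks of solute carriers (66.7%, 56.9 to 75.4) overlapped a Wtapflox/flox peak, against 61.6% of all Wtap-betaKO peaks. Of 140 Wtapflox/flox peaks, 69 (49.3%, 40.7 to 57.9) overlapped a Wtap-betaKO peak, against 51.6% of all Wtapflox/flox peaks. Both intervals include the value over all peaks. Among peaks with q of at most 0.001, the Wtap-betaKO share was 75.6% (65.1 to 84.2), an interval above the 64.6% of all such peaks. Under a 50% reciprocal overlap the shares were 42.6% in Wtap-betaKO and 32.9% in Wtapflox/flox. Of the 61 members with peaks in both lists, 51 had at least 1 overlapping pair (83.6%, 71.9 to 91.8), against 86.8% over all genes.

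In most overlapping pairs 1 peak lay within the other. In 74 pairs within the same gene, the median overlap was 181 nt, which covered a median of 100% of the Wtap-betaKO peak and 66.8% of the Wtapflox/flox peak. The whole Wtap-betaKO peak lay inside its partner in 42 pairs, and the whole Wtapflox/flox peak in 12. The Wtap-betaKO peak was the shorter in 54 pairs, the longer in 14 and of equal length in 6. Median lengths over these pairs were 239.5 nt in Wtap-betaKO and 359 nt in Wtapflox/flox. Over all genes, overlapping peaks were also shorter in Wtap-betaKO, with a median of 269 nt against 300 nt in Wtapflox/flox. Pair counts over all genes are not given here, so these counts do not set the solute carriers apart. Peak length depends on read depth, which is unknown for both genotypes, and its part in this difference was not tested.

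**Figure D3:**
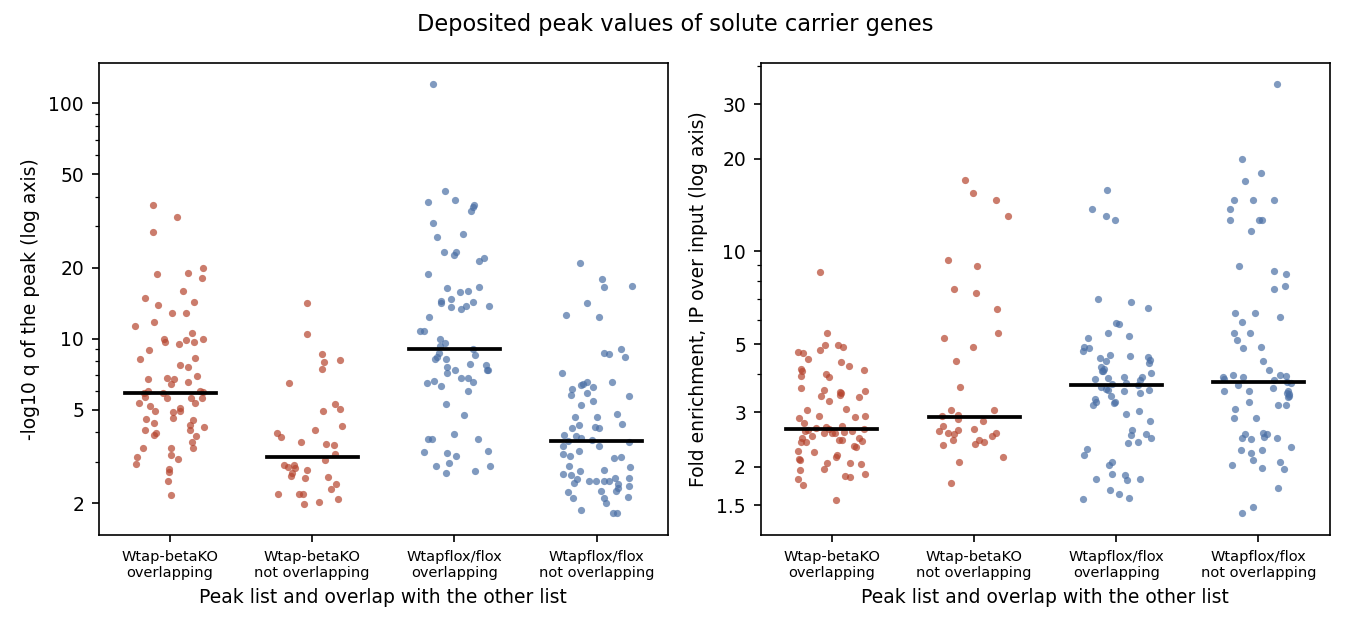
Deposited −log10 q (left) and fold enrichment (right) of every solute carrier peak on log axes, for 108 Wtap-betaKO and 140 Wtapflox/flox peaks that do or do not overlap a peak of the other list. Points are peaks and black lines are medians. By −log10 q the overlapping peaks sit higher (medians 5.90 and 3.14 in Wtap-betaKO, 9 and 3.67 in Wtapflox/flox), and by fold they do not (2.66 and 2.89, 3.68 and 3.77). The same holds over the peaks of all genes, not drawn here. Their −log10 q medians were 6.4 and 3.22 in Wtap-betaKO and 7.67 and 3.38 in Wtapflox/flox. Their fold medians were 3.31 and 3.75, and 3.67 and 4.45.

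Peaks of solute carriers lay near the 3′ end of the gene more often than other peaks in the Wtap-betaKO list, and less clearly so in the Wtapflox/flox list. The RefSeq 3′ end lay within 2000 bp of the peak centre for 55 of 108 Wtap-betaKO peaks (50.9%, 41.1 to 60.7), against 31.3% of all Wtap-betaKO peaks with a matched gene. For Wtapflox/flox peaks it was 60 of 140 (42.9%, 34.5 to 51.5), against 34.5%. The Wtap-betaKO interval lies above the value over all peaks, whereas the lower bound of the Wtapflox/flox interval lies at it. Mitochondrial carriers had 10 of 13 Wtap-betaKO peaks and 8 of 13 Wtapflox/flox peaks within 2000 bp, and amino acid transporters 13 of 28 and 12 of 29. Among ion channel genes, another large group of membrane transport genes, the shares were 32.1% (22.4 to 43.2) in Wtap-betaKO and 35.1% (26.3 to 44.8) in Wtapflox/flox. Transporters without an Slc symbol had 7 of 12 Wtap-betaKO peaks (58.3%, 27.7 to 84.8) and 12 of 19 Wtapflox/flox peaks (63.2%, 38.4 to 83.7) in this range. ABC transporter genes had 5 of 16 (31.2%, 11.02 to 58.7) and 11 of 20 (55%, 31.5 to 76.9), and ion pump genes 6 of 21 (28.6%, 11.3 to 52.2) and 8 of 24 (33.3%, 15.6 to 55.3). A high share near the 3′ end was thus not particular to the solute carriers in the Wtapflox/flox list. In the Wtap-betaKO list only the transporters without an Slc symbol had one as high. That share rests on 12 peaks, and its interval includes the 31.3% of all peaks.

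Gene length differed between these groups. The median RefSeq span was 26541 bp for solute carriers with a Wtap-betaKO peak, 30416.5 bp for other genes with one and 84704 bp for ion channel genes with one. Among genes within the middle 50% of solute carrier spans (14214 to 54345 bp), the Wtap-betaKO share was 46.9% (32.5 to 61.7) for solute carriers and 30.1% over all genes. The Wtapflox/flox shares in that range were 42.9% and 35.1%. Within 1000 bp of the 3′ end the shares were 30.6% in Wtap-betaKO, against 17.7% over all peaks, and 22.1% in Wtapflox/flox, against 19.4%. With the lowest-q peak of each gene alone, the solute carrier shares were 54.8% (42.7 to 66.5) in Wtap-betaKO and 44.8% (34.6 to 55.3) in Wtapflox/flox, against 38.6% and 41.7% over all genes.

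A smaller share of peaks joined exons among solute carriers than over all peaks in the Wtap-betaKO list, with intervals that overlap those of like groups of genes. More than 1 exon block was covered by 9 of 108 Wtap-betaKO peaks (8.33%, 3.88 to 15.2), against 18.0% of all Wtap-betaKO peaks. In the Wtapflox/flox list it was 16 of 140 (11.4%, 6.68 to 17.9), against 11.7%. The Wtap-betaKO share was 1 of 12 (8.33%, 0.211 to 38.5) for transporters without an Slc symbol, 14.3% (7.61 to 23.6) for ion channel genes and 3 of 16 (18.8%, 4.05 to 45.6) for ABC transporter genes. For ion pump genes it was 7 of 21 (33.3%, 14.6 to 57.0). None of the 18 Wtap-betaKO peaks of the nucleotide sugar class and none of the 13 of the mitochondrial carriers joined exons, against 2 of 20 and 2 of 13 Wtapflox/flox peaks. These class counts are small and have no intervals here, so they do not set either class apart. With the lowest-q peak of each gene alone, the Wtap-betaKO share was 8.22% (3.08 to 17.0), against 17.3% over all genes.

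**Figure D4:**
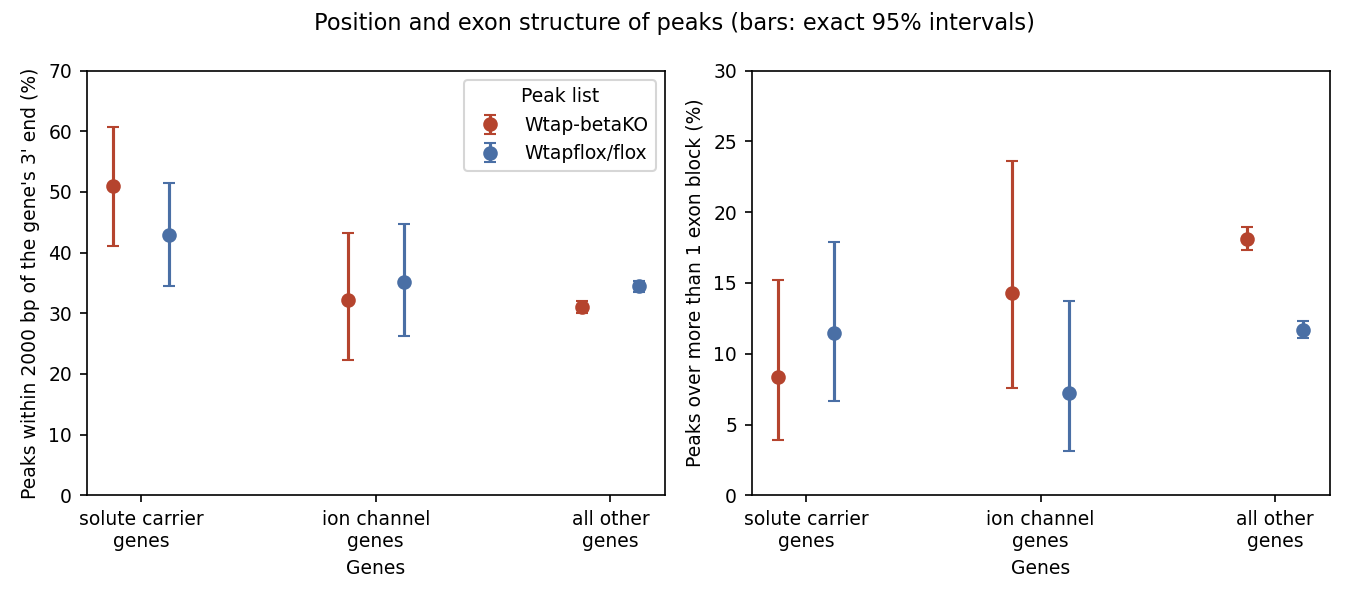
Share of peaks with a centre at most 2000 bp from the gene's 3′ end (left) and of peaks over more than 1 exon block (right), in percent with exact 95% intervals, for solute carriers, ion channels and all other genes. In Wtap-betaKO the solute carrier share is above that of all other genes for the 3′ end (50.9% and 31.0%) and below it for exon joins (8.33% and 18.1%), while the Wtapflox/flox intervals of solute carriers reach or nearly reach the other genes (42.9% and 34.4%, 11.4% and 11.7%).

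Solute carrier peaks had lower folds and lower q than all peaks at the median of both lists. Median fold was 2.72 for solute carriers and 3.43 for all peaks in Wtap-betaKO, and 3.72 and 3.95 in Wtapflox/flox. Median −log10 q was 5.06 and 4.63 in Wtap-betaKO, and 6.16 and 4.72 in Wtapflox/flox. Median peak length was 210 nt for both in Wtap-betaKO, and 225 and 211 nt in Wtapflox/flox. Genes with 1 peak made up 71.2% of solute carriers in Wtap-betaKO (59.4 to 81.2), against 60.8% of other genes, and 72.9% in Wtapflox/flox (62.9 to 81.5), against 59.5%. The Wtap-betaKO interval includes the value of other genes and the Wtapflox/flox interval lies above it.

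Of 41 solute carriers listed for their known part in islets, 21 had a peak. Peaks were in both lists for 17 of them, 14 with an overlapping pair, in Wtap-betaKO alone for Slc2a1 and Slc12a2, and in Wtapflox/flox alone for Slc30a7 and Slc39a14. Of 45 transporters that do not carry an Slc symbol, 15 had a peak. Of these, Mtch2 had a Wtap-betaKO peak alone, 9 had peaks in both lists and 5, among them Mpc2, which imports pyruvate into mitochondria, had Wtapflox/flox peaks alone. Ucp2, the uncoupling carrier of islets, had 1 overlapping pair with folds of 1.93 in Wtap-betaKO and 2.02 in Wtapflox/flox and −log10 q of 52.5 and 68.7. Of 29 ion pump genes, 14 had a peak, 3 in Wtap-betaKO alone, 8 in both lists and 3 in Wtapflox/flox alone, and all 8 had an overlapping pair. Over all genes, 23.1% with a Wtap-betaKO peak and 33.8% with a Wtapflox/flox peak had none in the other list. Of all genes with both, 86.8% had an overlapping pair. The intervals of the ion pumps and of the transporters without an Slc symbol include these values. The islet list is described by counts alone. Without the share of all coding genes with a peak, the counts of genes with a peak do not set any of these lists apart.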

How the data were processed

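MeRIP-seq of 4 libraries (1 IP and 1 input of pooled islet RNA per genotype) was deposited as 1 peak list per genotype. Per the submitters' processing notes, reads were processed with fastp 0.19.11 and BWA 0.7.12 on GRCm38. Per the series design text, exomePeak 2.16.0 called peaks, each IP against its own input, at a q of 0.05. Each deposited peak has a p-value, the log10 of its p and q, held as unbounded score columns, and the authors' fold enrichment, a ratio of IP over input. The annotation release and read depth are not given in the sources used here, and PCR reads without molecular identifiers are not independent molecules. A shared prefix with the sample titles ties each list to a genotype.

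Peaks were called overlapping when exon blocks shared at least 1 bp on the same strand. Coordinates are 1-based on GRCm38, and gene ends are RefSeq spans of GRCm38.p6, matched for all 108 members; RefSeq start windows were matched for 84. Shares have exact Clopper-Pearson 95% intervals. Repeated steps of fold were searched at folds of 20 or more, where 98.9% of peaks of each list lay on them. Overlap code was tested on simulated data (0 wrong of 5000 pairs). Of the peaks of members, 17, in 8 genes, overlapped a peak of another gene in the same list. Named genes, 87 of 108, followed a rule on transport class, peak number, q and fold, and others were added after their values were seen; 2 members are counted but not reported here by name. The members, gene lists and alternatives were chosen with earlier results of these data known. The alternatives were stricter q or fold, equal peak numbers, merging, other overlap rules and removal of step peaks or of genes that are not transporters. Python 3.11.15, pandas 2.3.3 and scipy 1.17.1 were used.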

Additional observations from a re-analysis of the deposited data

How the results depend on the processing

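Of 66 alternative values of the 8 shares of solute carrier genes or peaks, 61 stayed within the 95% interval of the reported value and 5 moved beyond it. The share of Wtap-betaKO peaks overlapping a Wtapflox/flox peak became 75.6% with q at most 0.001 in each list (interval 65.1 to 84.2, no longer including the 64.6% over all peaks) and 42.6% under a 50% reciprocal overlap (41.4%). The share of Wtapflox/flox peaks overlapping a Wtap-betaKO peak became 32.9% under the reciprocal overlap (35.5%). The shares near the 3′ end became 30.6% in Wtap-betaKO and 22.1% in Wtapflox/flox within 1000 bp, as the shorter distance requires. The Wtapflox/flox share near the 3′ end moved little with equal peak numbers or with q at most 0.001. Its interval then no longer included the value over all peaks. The causes of the changes with q and with peak numbers were not tested. The comparisons by distance to the 3′ end, by gene span and by the lowest-q peak of each gene, and the removal of Slc4a1ap, were chosen after seeing the data. No paired analysis was possible because there was a single pool of each genotype, which also leaves no replicate to omit. Peaks of low read number are the least certain, and the depth of the libraries is not known here.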
